A study of Danio rerio with 16 samples.

Results

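The data are the RNA of dissected eyes set against the RNA of dissected brains in vehicle larvae of the zebrafish, sequenced in 8 of the 16 libraries of the series. The eye group holds 4 libraries of eyes, and the brain group holds 4 libraries of brains. Both groups came from wild-type larvae at 120 hours post-fertilization (hpf) that had been kept in 0.02% DMSO from 6 hpf, the vehicle of a chemical exposure. The other 8 libraries came from eyes and brains of larvae exposed to 0.2 uM IPP in the same vehicle, and they enter here only as a second set of eye and brain libraries. Members were taken by label alone, and the comparison covers the 16551 genes that reach a mean of 1 FPKM in either group, out of 31901 in each table. The labels do not say how many larvae were pooled for a library, nor whether the eyes and brains came from the same larvae, so p-values cover just the scatter among the 8 libraries, which may be technical.

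An eye of this stage is a mixed organ. Its retina holds rods and cones, which capture light with opsins, bipolar cells that pass the signal on through ribbon synapses, horizontal and amacrine interneurons, and ganglion cells, which send their axons out through the optic nerve. Around it lie the pigment epithelium, which shades the photoreceptors and recycles their chromophore, and the lens, whose fibre cells are packed with crystallin proteins. The brain holds the forebrain, midbrain, cerebellum and hindbrain, each set up by its own transcription factors, together with the neurosecretory hypothalamus, radial glia and the myelin-forming oligodendrocytes. Many zebrafish genes are kept as a pair of copies, named a and b, from a genome duplication in the teleost ancestor.

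Values are given in TPM, a transcript level corrected for gene length and library total, which was computed from the deposited FPKM of each library and whose sum is the same in every library. A gene is called when limma gives an adjusted p under 0.05 and the difference between the tissues is at least 2-fold on the log2(TPM + 0.5) scale, which understates the change of genes near 0. Log2 fold changes are eye over brain, and ± marks the SD over 4 libraries. The tables of the 2 tissues were scaled separately by the authors, so tissue and table cannot be told apart. Crystallin transcripts took 14.4% to 19.3% of all TPM in the eye libraries, and the median log2 fold change over all genes tested was -0.57. With a median-of-ratios scaling of the same TPM values that median was -0.01, and with TPM computed without the crystallin and phototransduction genes it was -0.22. Counts of genes lower in eyes are therefore given under TPM and, after it, for the genes that keep the call with the median-of-ratios scaling too. Every gene called higher in eyes under TPM kept that call with the median-of-ratios scaling. That scaling moved log2 fold changes upwards, so calls of this direction could hardly be lost and their keeping is no check of them. Reads per gene, rebuilt from FPKM and gene length, summed to 10.6 M to 12 M in the eye libraries and 10.3 M to 12.5 M in the brain libraries.

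Eyes and brains differed over much of the transcriptome. Of the 16551 genes tested, 1868 (11.3%) were called higher in eyes and 4340 (26.2%) lower, of which 2275 (13.7% of those tested) were lower with both scalings. With the median-of-ratios scaling alone the split was 2736 higher (16.5%) and 2275 lower. The eye and brain libraries did not overlap in 10430 genes (63%). Genes with large differences were mostly higher in eyes: 326 genes were called at least 32-fold higher and 80 at least 32-fold lower, and with the median-of-ratios scaling these counts were 370 and 50. At least 10 TPM in every eye library with under 0.5 TPM in every brain library was found for 131 genes, and the reverse for 20. Of the genes tested, 13378 reached the filter in both tissues (822 called higher and 3207 lower), 1502 through eyes alone (1046 called higher) and 1671 through brains alone (1133 called lower). For a gene that passed through 1 tissue alone, the filter itself set which tissue had the higher mean FPKM. The counts over lists are therefore descriptions, to be read beside the shares over all genes tested, and support nothing further. Without regard to fold, 11474 genes (69.3%) had an adjusted p under 0.05. The first principal component of the 8 libraries separated the tissues and carried 80.6% of the variance.

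The separate eye and brain libraries of IPP larvae gave much the same directions. In them 1794 genes (10.8%) were called higher in eyes and 3794 (22.9%) lower. Of the 6208 genes called in vehicle larvae, 4949 were called the same way in IPP larvae, 6185 had the same sign, and 0 were called the opposite way. The IPP libraries came in the same tissue tables and were put on the same TPM scale. These counts therefore cannot test the scaling or tell tissue from table. No gene had an eye to brain difference that differed between vehicle and IPP larvae after adjustment (limma interaction contrast). At an unadjusted p under 0.05, 502 of the 16551 genes did, a share below the 0.05 that this threshold gives when nothing differs.

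**Figure D1:**
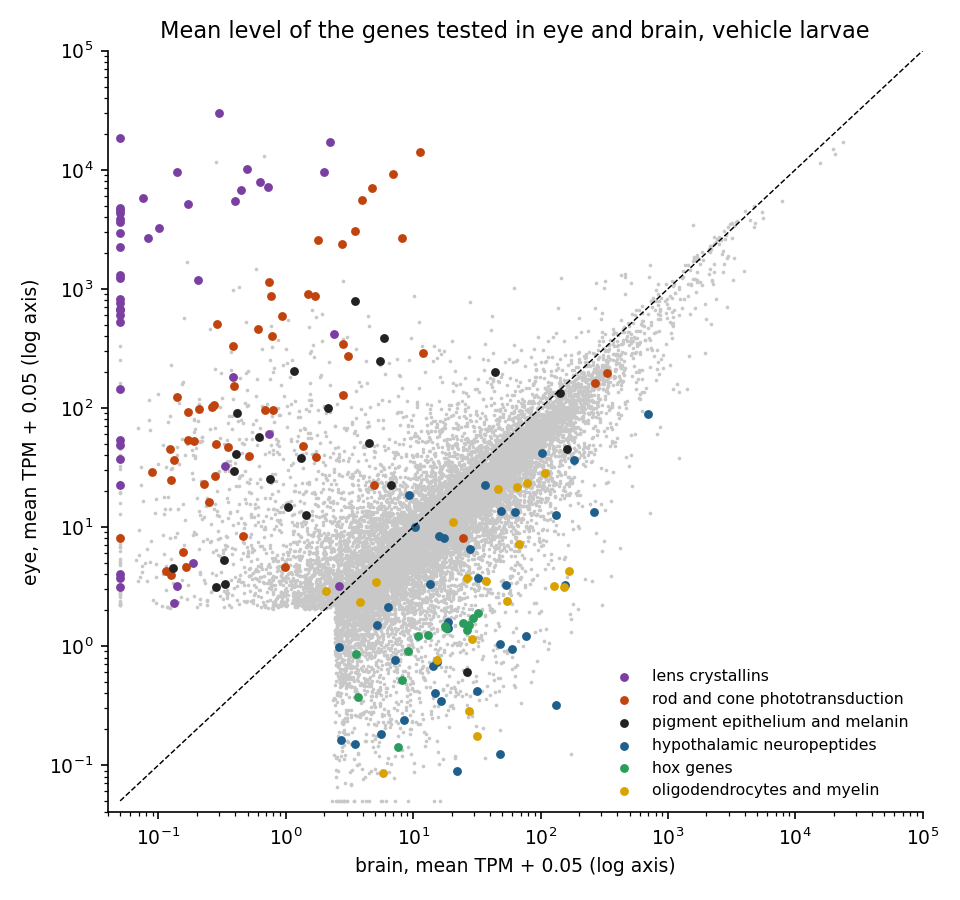
Mean level of each tested gene in eye libraries (vertical axis) against brain libraries (horizontal axis), in TPM plus 0.05 on log axes, n = 4 libraries a tissue. Crystallin genes lie along the upper left high in eyes and near 0 in brains, phototransduction genes lie next to them, and hypothalamic neuropeptide and hox genes lie to the lower right of the line of equal levels.

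Lens crystallins were the largest single share of the eye transcriptome. Of the 46 crystallin genes tested, 45 were called higher in eyes and 0 lower, and the median log2 fold change was 11.02, or 10.81 with the 24 genes that had no read in any brain library set at their lower bound. Their summed level was 181550, 177618, 192716 and 143629 TPM in the eye libraries, against 13.5, 16.6, 12.5 and 16 TPM in the brain libraries. The most abundant transcript of the eye was crybb1, a beta crystallin, with 32747, 34128, 36925 and 16560.4 TPM in the eye libraries, against 0, 0.225, 0.385 and 0.395 TPM in the brain libraries. The next was crygm2d13, one of the teleost gamma M crystallins that pack the densest part of the lens, with 18262, 19078, 19056 and 17054 TPM in the eye libraries and no read in any brain library. Against a floor of 3 reads a library this makes crygm2d13 at least 19158-fold higher in eyes. The gamma N crystallin crygn2 had 17005 ± 567 TPM in eyes and 2.17 ± 0.395 TPM in brains (log2 fold change 12.65, SE 0.10, adjusted p = 2.14e-12, limma). The small heat shock crystallin cryaa, a chaperone of the lens, had 588, 564, 699 and 571 TPM in the eye libraries and none in brains, at least 1394-fold. Eye library 4 had the lowest summed crystallin level, and all 4 eye libraries were far above all 4 brain libraries. The gamma M genes are near-identical copies, so their reads may be shared among them and single members are uncertain. The 12 genes with the largest fold change that met the naming rule were all crystallins, among them cryba1b with 9554 TPM in eyes and 0.0905 TPM in brains, cryba1l1 with 10075 TPM in eyes and 0.449 TPM in brains and cryba2b with 5748 TPM in eyes and 0.0261 TPM in brains.

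Most other lens genes were higher in eyes too. Of 26 lens fibre and lens regulator genes tested, 19 were higher in eyes and 3 lower, 1 with both scalings. The water channel of lens fibres mipb had 1514, 1603, 1646 and 1121 TPM in the eye libraries, against 0.186, 0.852, 0.636 and 0.466 TPM in the brain libraries. The beaded filament gene bfsp2 had 982 TPM in eyes and 0.336 TPM in brains, the lengsin gene lgsn 573 and 0.108 TPM, and the fibre membrane protein gene lim2.4 461 and 0.205 TPM in the same order. Against this direction, mafba, a transcription factor also used in the hindbrain, was lower in eyes with 19 TPM in eyes and 81.9 TPM in brains (log2 fold change -2.05). The lim2.4 relative lim2.2 had 1.85 TPM in eyes and 4.93 TPM in brains and lost its call with the median-of-ratios scaling.

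Photoreceptor genes were higher in eyes. Of 26 rod phototransduction genes tested, 24 were higher in eyes and 0 lower (median log2 fold change 5.61), and of 28 cone genes 27 were higher and 0 lower (median 7.44). Summed over the list, cone genes gave 42396, 41779, 40777 and 43907 TPM in the eye libraries, against 41.6, 69.2, 159 and 46.9 TPM in the brain libraries. The ultraviolet cone opsin opn1sw1 was the most abundant photoreceptor transcript, with 14663, 13268, 13654 and 14404 TPM in the eye libraries, against 4.94, 8.33, 31.3 and 0.56 TPM in the brain libraries (log2 fold change 11.11, SE 0.83, adjusted p = 2.93e-06, limma). The rod opsin rho had 9245, 10484, 9616 and 7319 TPM in the eye libraries, against 2.97, 7.95, 16.2 and 0.387 TPM in the brain libraries (log2 fold change 10.96, SE 0.76, adjusted p = 1.67e-06, limma). The eye and brain libraries were far apart for both opsins, and among the brain libraries number 3 had the highest level of each and number 4 the lowest.

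Of the 8 cone opsin genes in the list, 5 were tested and all 5 were called higher in eyes, while opn1mw3, opn1mw4 and opn1lw1 were under the filter in both tissues and were not tested. The green cone opsin opn1mw1 averaged 5612 ± 468 TPM in eyes and 3.9 ± 4.4 TPM in brains, and the red cone opsin opn1lw2 averaged 2559.5 ± 228 TPM in eyes and 1.75 ± 2.19 TPM in brains. The cone transducin subunit gngt2b, part of the G protein that couples opsin to its enzyme, had 6966 ± 318 TPM in eyes and 4.69 ± 3.98 TPM in brains, and gnat2, the alpha subunit, had 3086 ± 113 TPM in eyes and 3.46 ± 2.79 TPM in brains. The cone phosphodiesterase pde6c, which breaks down the cyclic GMP that holds the photoreceptor channels open, had 909 TPM in eyes and 1.45 TPM in brains. The cone arrestin arr3a, which ends the response, had 1131 TPM in eyes and 0.692 TPM in brains. In rods the alpha transducin gnat1 averaged 347 TPM in eyes and 2.77 TPM in brains, and the disc rim protein gene prph2a 877 and 0.714 TPM in the same order. The rod genes that were not called were gnb1a and gnb1b, beta subunits that neurons use widely, named here after their values were seen, with 162 TPM in eyes and 268 TPM in brains for gnb1a and 196 TPM in eyes and 330.2 TPM in brains for gnb1b. The green opsin copies lie in a tandem group of similar sequence, so their reads may be shared.

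Genes that build photoreceptors were higher as well. Of 33 such genes tested, 30 were higher in eyes and 0 lower. The homeobox factors otx5 and crx, which switch on photoreceptor genes, had 669.9 TPM in eyes and 1.56 TPM in brains and 323 TPM in eyes and 0.725 TPM in brains. The rim protein gene prph2b had 526 TPM in eyes and 0.438 TPM in brains, and the retinoschisin gene rs1a, which holds retinal layers together, 869 and 10.1 TPM in the same order. The neuronal differentiation factor neurod1 was abundant in both, with 904, 881, 931 and 893 TPM in the eye libraries, against 467, 508, 461 and 392 TPM in the brain libraries, and its log2 fold change of 0.99 was called with the median-of-ratios scaling (1.58) and without brain library 2 (1.04), but not under TPM with all libraries. The eye and brain libraries did not overlap.

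Photoreceptors and bipolar cells release glutamate at ribbon synapses, which differ in several proteins from the conventional synapses of the brain. Of 25 genes of ribbon synapses and photoreceptor terminals tested, 14 were higher in eyes and 2 lower, 0 with both scalings. The ribbon complexin cplx4a, a clamp on vesicle fusion, had 538, 496, 419 and 456 TPM in the eye libraries, against 1.11, 1.18, 2.86 and 0.713 TPM in the brain libraries (log2 fold change 8.03, SE 0.27, adjusted p = 1.77e-08, limma). The synaptotagmins syt5a and syt5b had 361 TPM in eyes and 1.87 TPM in brains and 1022 TPM in eyes and 62.2 TPM in brains. The calcium channel subunit cacna1fa, which opens release at photoreceptor terminals, had 29.7 TPM in eyes and 0.309 TPM in brains. The active zone gene bsnb, a member of the same list, was lower under TPM, with 20.4 TPM in eyes and 56.5 TPM in brains. It lost the call with the median-of-ratios scaling. The list also counts the phosphodiesterase pde6c given above, which had its largest difference (log2 fold change 8.92).

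Pigment epithelium and visual cycle genes were higher in eyes. Of 23 pigment epithelium and melanin genes tested, 20 were higher and 1 lower, which was bhmt, whose call was lost with the median-of-ratios scaling and without eye library 2, eye library 3 or brain library 1. The isomerase rpe65a, which regenerates the chromophore of the opsins, had 786, 788, 932 and 679.8 TPM in the eye libraries, against 3.55, 2.98, 4.68 and 2.61 TPM in the brain libraries (log2 fold change 7.67, SE 0.16, adjusted p = 1.31e-09, limma). The melanin genes dct, tyrp1b and pmela had 202 TPM in eyes and 1.12 TPM in brains, 385 TPM in eyes and 5.89 TPM in brains and 247 TPM in eyes and 5.45 TPM in brains. Of 32 visual cycle and retinoid genes tested, 20 were higher in eyes and 5 lower, 4 with both scalings. The retinoid carrier of the space between photoreceptors and pigment epithelium, rbp3, had 583 TPM in eyes and 1.68 TPM in brains, and rlbp1a, a retinaldehyde carrier gene, 289 and 1.49 TPM in the same order. The retinol-binding gene rbp4l had 131 TPM in eyes and 0.0495 TPM in brains. Lower in eyes were crabp1b, a retinoic acid carrier, with 1.23 TPM in eyes and 18.3 TPM in brains, and cyp26b1, which breaks down retinoic acid, with 4.89 TPM in eyes and 40.0 TPM in brains.

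Lists for the inner retina, many of whose genes brain neurons also use, were mixed. Over all genes tested the shares were 11.3% higher, 26.2% lower and 13.7% lower with both scalings. Of 23 bipolar genes tested, 16 were higher in eyes and 2 lower, with both scalings for each. The bipolar homeobox factor vsx1 had 185, 234, 214 and 199 TPM in the eye libraries, against 0, 0.428, 0.731 and 0.125 TPM in the brain libraries. The calcium-binding gene cabp2a had 227 TPM in eyes and 0.907 TPM in brains, and nyx, which anchors the receptor complex of the ON pathway, 105 and 0.456 TPM in the same order. The homeobox factor irx5a, also used in the midbrain, was lower in eyes with 45.9 TPM in eyes and 237 TPM in brains (log2 fold change -2.36). Of 31 horizontal and amacrine genes tested, 10 were higher and 11 lower, 8 with both scalings. The horizontal cell connexin cx52.6 had 6.82, 7.88, 8.8 and 10.4 TPM in the eye libraries and no read in brains, at least 29.1-fold, and the factor tfap2c had 67.2 TPM in eyes and 2.83 TPM in brains. The calcium buffer calb2b was among the most abundant inner retinal genes, with 1251, 1274, 1159.7 and 1249 TPM in the eye libraries, against 136, 154, 153 and 131 TPM in the brain libraries. The homeobox factor lhx1a, of horizontal cells but also of brain nuclei, was lower in eyes with 6.26 TPM in eyes and 303 TPM in brains. The vesicular transporter of GABA and glycine, slc32a1, with 228 TPM in eyes and 433 TPM in brains, was not called (adjusted p = 7.41e-05, limma, log2 fold change -0.92), but was called without brain library 4 (-1.02).

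Among 29 genes of retinal ganglion cells tested, 5 were higher in eyes and 18 lower, 14 with both scalings. Those higher include isl2b, a homeobox factor of ganglion cells, with 107 TPM in eyes and 2.49 TPM in brains, the RNA-binding markers rbpms2a and rbpms2b with 139.8 TPM in eyes and 3.49 TPM in brains and 239 TPM in eyes and 6.42 TPM in brains, and atoh7, which commits progenitors to that fate, with 40.1 TPM in eyes and 1.93 TPM in brains. The ganglion cell factor pou4f2 went the other way under TPM, with 97.1, 99.4, 79.5 and 75.9 TPM in the eye libraries, against 182, 189, 181 and 170.2 TPM in the brain libraries, and its log2 fold change of -1.04 became -0.45 with the median-of-ratios scaling, where it was not called, nor was it without eye library 3 or 4. The neurofilament gene nefma, also used by long-axon neurons of the brain, had 1.09, 2.46, 1.73 and 1.94 TPM in the eye libraries, against 184, 187, 176 and 135 TPM in the brain libraries (log2 fold change -6.24, SE 0.19, adjusted p = 1.11e-08, limma), and gap43, a growth cone protein gene, had 60.4 TPM in eyes and 819 TPM in brains. The synuclein sncgb was abundant in both, with 1132 TPM in eyes and 1778 TPM in brains, and was not called. In bulk tissue, fewer cells of a type and less RNA per cell cannot be told apart.

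Mueller glia genes, of the support cells of the retina, split between the tissues. Of 22 tested, 7 were higher in eyes and 6 lower, 4 with both scalings. Over all genes tested the shares were 11.3%, 26.2% and 13.7%, and the count lower in eyes was near its share. The glutamate transporter slc1a2a, which clears transmitter, had 306, 315, 242 and 324 TPM in the eye libraries, against 0.265, 0, 1.03 and 0 TPM in the brain libraries (log2 fold change 8.65, SE 0.33, adjusted p = 3.72e-08, limma). Its duplicate slc1a2b had 299, 314, 289.8 and 254 TPM in the eye libraries, against 1971, 2092, 2117 and 1612 TPM in the brain libraries (log2 fold change -2.74, SE 0.10, adjusted p = 2.40e-08). The related glial transporter slc1a3b had 2.33, 0.64, 1.94 and 3.73 TPM in the eye libraries, against 281, 292, 350.4 and 302 TPM in the brain libraries (log2 fold change -6.99, SE 0.34, adjusted p = 1.49e-07). So eyes held the 2 slc1a2 copies at similar levels, while brains held nearly all of theirs as slc1a2b. Membership of this list does not show that slc1a2a is glial in the eye. Which eye cells hold each copy was not tested. The creatine kinase ckbb and the fatty acid carrier fabp7a were abundant in both tissues and not called, with 2727 TPM in eyes and 2295 TPM in brains for ckbb and 1094 TPM in eyes and 1524 TPM in brains for fabp7a.

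**Figure D2:**
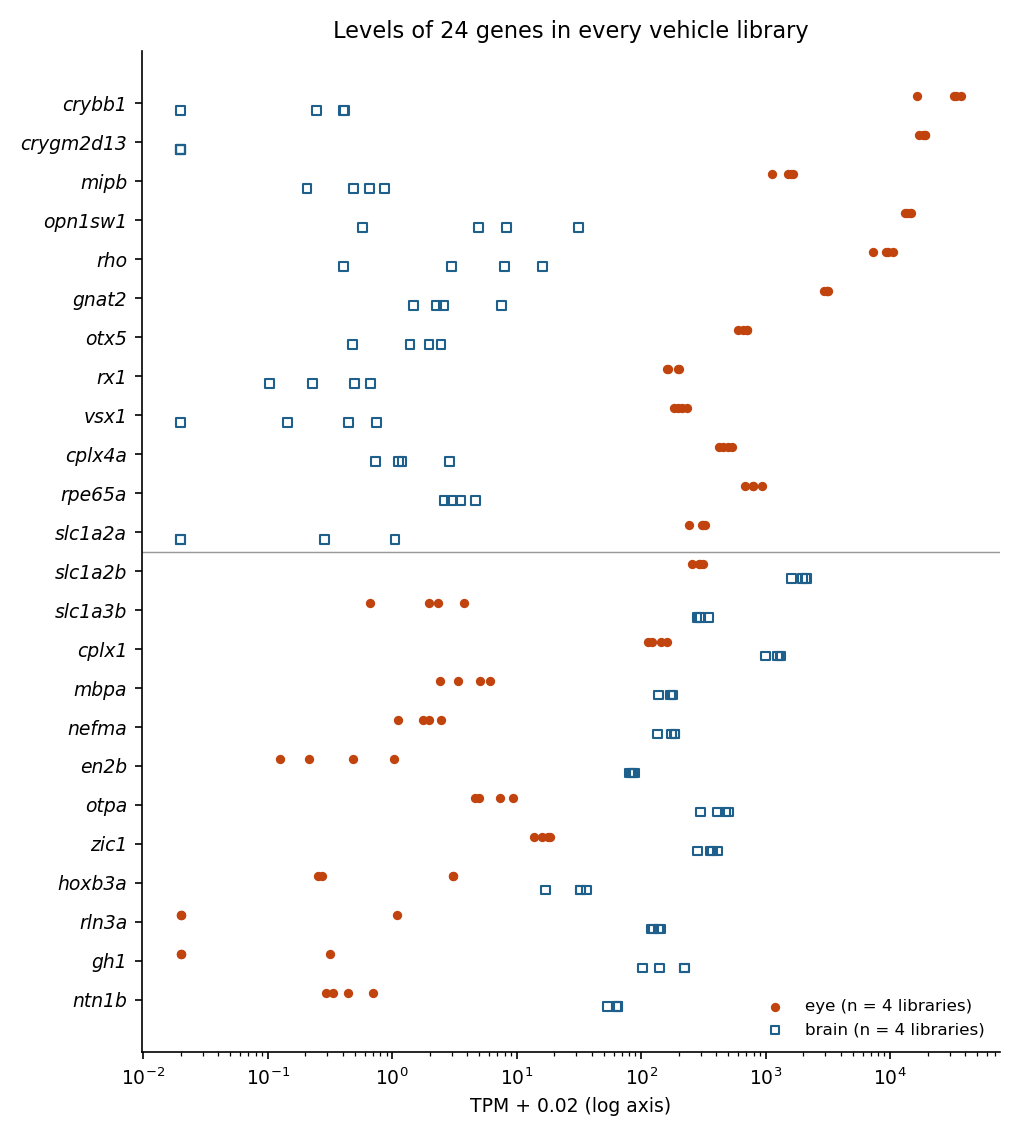
Level of 24 named genes in every library, in TPM plus 0.02 on a log axis, with the 4 eye libraries (filled circles) drawn above the 4 brain libraries (open squares) in each row. The upper 12 genes are higher in every eye library than in any brain library, and the lower 12 genes are lower in every eye library than in any brain library.

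Of the regional transcription factors pooled here, most were lower in eyes. The 106 tested came from the eye field, photoreceptor, forebrain, midbrain, cerebellum and hox lists. Of them, 23 were higher in eyes and 73 lower, 67 of those with both scalings. Over all genes tested the shares were 11.3% higher, 26.2% lower and 13.7% lower with both scalings. The choice of lists to pool sets this balance in part, so the counts are a description. Of these 106 genes, 44 passed the filter through brains alone, among them all 14 hox genes, and 11 through eyes alone. For those genes the filter itself set which tissue had the higher mean FPKM. Of the 51 that passed in both tissues, 13 were higher in eyes and 29 lower, 24 with both scalings. Of all 13378 genes that passed in both tissues, 822 were higher and 3207 lower, 1399 with both scalings. Besides otx5 and crx, the factors with the highest eye level among those called higher were pax6a with 335 ± 17.7 TPM in eyes and 62.3 ± 4.03 TPM in brains, isl1 with 254 ± 15.9 TPM in eyes and 65.2 ± 7.72 TPM in brains and six3b with 245 ± 19.1 TPM in eyes and 52.72 ± 6.47 TPM in brains. These 3 were well detected in brains too, where pax6a and six3b also act in the forebrain. The retinal homeobox gene rx1, an eye field factor kept in photoreceptors, had 197, 161, 202 and 164 TPM in the eye libraries, against 0.209, 0.478, 0.652 and 0.0836 TPM in the brain libraries. In the eye field list as a whole, 16 of 29 genes tested were higher in eyes and 6 lower. Those lower include pax2a, of the optic stalk and the midbrain-hindbrain boundary, with 3.76 TPM in eyes and 70.2 TPM in brains, and mab21l2, of the eye and the midbrain roof, with 24 TPM in eyes and 338 TPM in brains. Its relative mab21l1 had 288 TPM in eyes and 524 TPM in brains and was not called.

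The brain side held factors of every region. Of 39 forebrain factors tested, 32 were lower in eyes, 29 with both scalings, and 5 were higher. The hypothalamic factor otpa had 7.36, 5, 9.33 and 4.6 TPM in the eye libraries, against 505, 473, 409 and 302 TPM in the brain libraries (log2 fold change -5.93, SE 0.23, adjusted p = 4.20e-08, limma), and its duplicate otpb had 1.32 TPM in eyes and 99.6 TPM in brains. The Wnt pathway factor tcf7l2, of the thalamus, had 8.82 TPM in eyes and 275 TPM in brains, zic2a had 22.5 TPM in eyes and 261 TPM in brains, and the interneuron factor dlx1a had 3.01 TPM in eyes and 109 TPM in brains. The forebrain factor foxg1a had 34.7, 35.6, 32.7 and 30.1 TPM in the eye libraries, against 51.2, 59.5, 82.2 and 50.1 TPM in the brain libraries and was not called (log2 fold change -0.83, -0.25 with the median-of-ratios scaling), though it was called without brain libraries 1 and 4 (-1.06). Of 41 midbrain and cerebellum genes tested, 35 were lower in eyes, 32 with both scalings, and 1 was higher. The boundary factor en2b had 0.105, 1.01, 0.194 and 0.467 TPM in the eye libraries, against 83.2, 89.1, 86.6 and 80.5 TPM in the brain libraries (log2 fold change -6.59, SE 0.27, adjusted p = 4.98e-08, limma). The factors zic1 and gata3 had 16.5 TPM in eyes and 357 TPM in brains and 13.8 TPM in eyes and 318 TPM in brains. The member higher in eyes was lmx1ba, with 18.4 TPM in eyes and 8.57 TPM in brains. Its log2 fold change of 1.04 was 0.98 without eye library 3, 0.94 without eye library 4 and 0.99 with TPM computed without mitochondrial genes, where it was not called.

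Hox genes, which pattern the hindbrain and spinal cord, were low in eyes. Of 48 hox genes in the tables, 14 passed the filter, all 14 of those were lower in eyes, and 13 were so with both scalings. All 14 passed through their brain level alone, so the filter itself set which tissue had the higher mean FPKM, and the count is a description. Their summed level was 6.71, 4.1, 18.9 and 39 TPM in the eye libraries, against 207, 308, 264 and 206 TPM in the brain libraries. The hindbrain gene hoxb3a had 0.234, 0.253, 3.07 and 3.06 TPM in the eye libraries, against 32.4, 36.6, 32.7 and 17 TPM in the brain libraries. Eye libraries 3 and 4 had more hox reads than eye libraries 1 and 2.

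**Figure D3:**
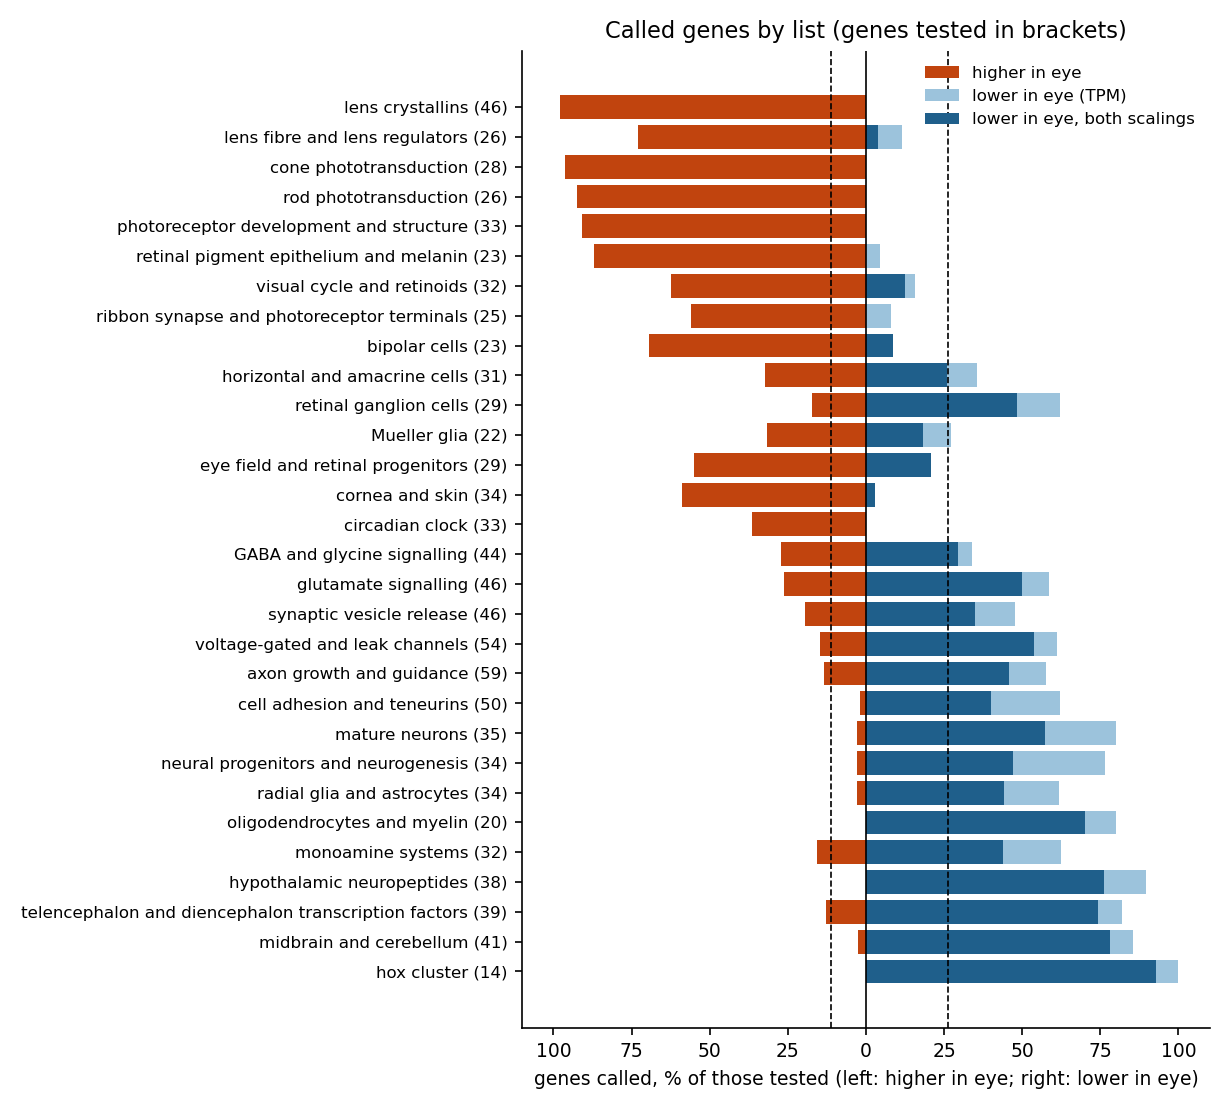
Share of the tested genes of 30 lists called higher in eyes (bars to the left) and lower in eyes (bars to the right), in percent, with the part lower under both scalings in a darker shade. Dashed lines mark the shares over all genes tested, 11.3% higher and 26.2% lower.

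Neuropeptide genes of the hypothalamus and other brain nuclei were low in eyes. Of 38 tested, 34 were lower, 29 with both scalings, and 0 were higher. The relaxin rln3a, made in a small brainstem nucleus, had 1.07, 0, 0 and 0 TPM in the eye libraries, against 138, 122, 125 and 143 TPM in the brain libraries (log2 fold change -7.63, SE 0.36, adjusted p = 1.26e-07, limma). The oxytocin gene oxt had 0.828, 1.06, 0.762 and 1.96 TPM in the eye libraries, against 54.3, 86.9, 90.8 and 73.7 TPM in the brain libraries, and the orexin gene hcrt, which promotes wakefulness, 0.188 and 8.43 TPM as means in eyes and brains. The secretogranin scg2b, a protein of peptide vesicles, was present in both, with 88.3 TPM in eyes and 698 TPM in brains. Pituitary genes were mixed, with 9 of 16 tested lower in eyes (7 with both scalings) and 4 higher. Of all genes tested, 26.2% were lower (13.7% with both scalings) and 11.3% higher. Growth hormone gh1 had 0, 0, 0.296 and 0 TPM in the eye libraries, against 225, 141, 222 and 102 TPM in the brain libraries, and prl and pomca, the genes of prolactin and of the precursor of corticotropin, had 2 reads and 1 read over all 4 eye libraries. Those higher in eyes include pitx1 with 31.3 TPM in eyes and 4.95 TPM in brains and lhx4 with 64.5 TPM in eyes and 16.5 TPM in brains, factors that other tissues share with the pituitary. The largest difference among those higher was in prl2, with 7.44 TPM in eyes and 0.204 TPM in brains (log2 fold change 3.53), called with both scalings.

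Monoamine genes were lower in eyes in 20 of 32 tested, 14 with both scalings, and higher in 5. The serotonin neuron factor fev had 0.459 TPM in eyes and 9.66 TPM in brains. Higher in eyes were pah, which makes tyrosine, with 192 ± 5.05 TPM in eyes and 6 ± 3.65 TPM in brains, gch2, which makes the pteridine cofactor and pigment precursor, with 52.4 TPM in eyes and 11.7 TPM in brains, and the dopamine receptor drd4a with 25.8 TPM in eyes and 3.25 TPM in brains. For acetylcholine, 4 of 17 tested were higher and 7 lower, 6 with both scalings. The shares over all genes tested were 11.3%, 26.2% and 13.7% in the same order. The esterase ache had 31.7 TPM in eyes and 120.4 TPM in brains and the receptor subunit chrna5 2.25 and 59 TPM in the same order, while the subunit chrnb3b was higher in eyes with 13.7 TPM in eyes and 1.26 TPM in brains. Pineal and habenula genes split, with 9 of 24 tested higher in eyes and 10 lower, 9 with both scalings. The melatonin enzymes aanat2 and asmt, which both the pineal and retinal photoreceptors make, had 81.6 TPM in eyes and 3.48 TPM in brains and 41.2 TPM in eyes and 2.58 TPM in brains. Melanopsin opn4xb, a light sensor outside rods and cones, had 58.6 TPM in eyes and 0.544 TPM in brains.

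Myelin genes were low in eyes. Of 20 oligodendrocyte genes tested, 16 were lower, 14 with both scalings, and 0 were higher. Myelin basic protein mbpa had 6.11, 2.42, 3.37 and 5.09 TPM in the eye libraries, against 180.1, 171, 177 and 139 TPM in the brain libraries (log2 fold change -5.20, SE 0.24, adjusted p = 1.10e-07, limma), plp1b, the major membrane protein of central myelin, had 3.07 TPM in eyes and 152 TPM in brains, and the lineage factor olig1 had 0.125 TPM in eyes and 31.5 TPM in brains. The factor sox10, of oligodendrocytes and also of neural crest and pigment cells, had 10.9 TPM in eyes and 20.4 TPM in brains and was not called. Radial glia genes were lower in 21 of 34 tested, 15 with both scalings, and 1 was higher, which was slc1a2a. The progenitor factor sox19a had 1.05 TPM in eyes and 66.4 TPM in brains, while glutamine synthetase glula, shared by Mueller glia and brain glia, had 818 TPM in eyes and 1239 TPM in brains and was not called. Of 14 ependymal and ciliary genes tested, 9 were lower in eyes, 7 with both scalings, among them rfx4, a factor of neural tube cells, with 0.339 TPM in eyes and 18.2 TPM in brains.

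Genes of new and mature neurons were lower in eyes as groups. Of 34 neurogenesis genes tested, 26 were lower, 16 with both scalings, and 1 was higher. That one was neurod4, a differentiation factor of the retina, with 277, 239.7, 284 and 277 TPM in the eye libraries, against 22.2, 30.2, 26.8 and 30.3 TPM in the brain libraries (log2 fold change 3.28, SE 0.11, adjusted p = 1.49e-08, limma). The tubulin tubb5 of new neurons had 143 TPM in eyes and 1412 TPM in brains, and the interneuron factor dlx1a is given above. Of 35 mature neuron genes tested, 28 were lower, 20 with both scalings, and 1 was higher. The kinase camk2a, of excitatory synapses, had 1.91 TPM in eyes and 100.2 TPM in brains, and the microtubule regulator stmn1b, with 753 TPM in eyes and 1954 TPM in brains, lost its call with the median-of-ratios scaling. The member higher in eyes was snap25b, a membrane fusion protein gene, with 1114, 1193, 1073 and 1083 TPM in the eye libraries, against 585, 510.1, 511 and 447 TPM in the brain libraries, while its duplicate snap25a had 160.3, 179, 151 and 149.8 TPM in the eye libraries, against 1240, 1250.4, 1194 and 1064 TPM in the brain libraries.

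Of 46 vesicle release genes tested, 9 were higher and 22 lower, 16 with both scalings, beside 11.3%, 26.2% and 13.7% of all genes tested. The complexin of conventional synapses, cplx1, had 113, 160.2, 122 and 145 TPM in the eye libraries, against 1247, 1329, 1306 and 997 TPM in the brain libraries (log2 fold change -3.17, SE 0.13, adjusted p = 4.64e-08, limma), against the ribbon complexin cplx4a given above. The vesicle protein gene sv2ba had 77.4 TPM in eyes and 0.156 TPM in brains. Of 46 glutamate genes tested, 12 were higher and 27 lower, 23 with both scalings. The transporter slc1a8a, of the excitatory amino acid transporter family, had 140.5 TPM in eyes and 0.442 TPM in brains, whereas the vesicular transporter slc17a6a had 0.281 TPM in eyes and 70.7 TPM in brains. The NMDA receptor subunit grin1b had 629 TPM in eyes and 302 TPM in brains. Its log2 fold change of 1.04 was called, but not without eye library 1 (0.97), eye library 4 (0.98) or brain libraries 1 and 4 (0.97), nor with TPM computed without mitochondrial genes (0.99).

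Of 44 GABA and glycine genes tested, 12 were higher in eyes and 15 lower, 13 with both scalings. The shares over all genes tested were 11.3%, 26.2% and 13.7%. The rho subunits, which form the slow GABA receptors of bipolar and horizontal cells, were among those higher, gabrr1 with 92.5 TPM in eyes and 2.17 TPM in brains and gabrr3a with 49.7 TPM in eyes and 0.244 TPM in brains. The subunit gabra6a had 79.9 ± 11.3 TPM in eyes and 0.139 ± 0.122 TPM in brains, whereas the transporter slc6a1b, which clears GABA, was lower with 245 TPM in eyes and 832 TPM in brains. The synthetic enzyme gad1b, with 279 TPM in eyes and 394 TPM in brains, was not called. Among 54 voltage-gated and leak channel genes tested, 8 were higher and 33 lower, 29 with both scalings. The potassium channel subunits kcnb2 and kcnv2b had 116 TPM in eyes and 1.54 TPM in brains and 16.4 TPM in eyes and 0.026 TPM in brains, and the sodium channel subunits scn1bb and scn8aa, which carry action potentials, had 48.5 TPM in eyes and 295 TPM in brains and 19.5 TPM in eyes and 81.7 TPM in brains.

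Axon guidance genes were lower in eyes in 34 of 59 tested, 27 with both scalings, and higher in 8. The netrin ntn1b, a midline attractant, had 0.424, 0.272, 0.683 and 0.313 TPM in the eye libraries, against 62.9, 65.1, 64.7 and 53.8 TPM in the brain libraries (log2 fold change -6.09, SE 0.17, adjusted p = 6.32e-09, limma). Higher in eyes were sema6d with 113 TPM in eyes and 6.38 TPM in brains and the ephrin efna1b with 245 TPM in eyes and 19.5 TPM in brains, ligands that steer growth cones. Of 50 adhesion genes tested, 31 were lower, 20 with both scalings, and 1 was higher, which was pcdh8 with 28 TPM in eyes and 0.727 TPM in brains. The teneurin tenm1 and the cadherin cdh13, both cell surface proteins of neurons, had 6.82 TPM in eyes and 63.5 TPM in brains and 5.1 TPM in eyes and 50.3 TPM in brains.

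Genes whose symbols differ only in a final a or b were taken as likely duplicates and compared within each pair. The pairing rests on the names alone, so some pairs may not come from the genome duplication. Of 1756 a and b pairs with both copies tested, the a to b ratio differed between eyes and brains in 1042 (59.3%), and by at least 2-fold in 741 (42.2%, limma on the log2 ratio, adjusted over all pairs), beside 69.3% and 37.5% of all genes for the difference between tissues itself. A ratio within a library does not depend on the scaling between tissues beyond the pseudocount. In 66 pairs (3.76%) one copy was called higher and the other lower in eyes, 36 of them with both scalings, with the a copy higher in eyes in 33 and the b copy in 33. The split was found the same way in IPP larvae for 47 of these pairs. Both copies were higher in 106 pairs (6.04%) and both lower in 269 (15.3%), so pairs called in the same direction outnumbered the split pairs. Only 1 copy was called in 659 (37.5%). Of all genes tested, 11.3% were called higher and 26.2% lower.

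The widest split was that of slc1a2, described with the Mueller glia list (difference between the log2 fold changes 11.39 for a minus b, SE 0.35, adjusted p = 7.55e-08, limma). The fatty acid elongases elovl4b and elovl4a, which make very long chain fatty acids, had 232, 245, 255 and 267 TPM in the eye libraries, against 3.38, 4.85, 3.37 and 5.27 TPM in the brain libraries and 24.9, 22.5, 16.5 and 34.4 TPM in the eye libraries, against 49.5, 43.5, 61 and 66.6 TPM in the brain libraries (difference between the log2 fold changes -6.93 for a minus b, SE 0.26, adjusted p = 1.55e-07). The calcium sensors ncaldb and ncalda had 282 TPM in eyes and 16.6 TPM in brains and 22.8 TPM in eyes and 157 TPM in brains (difference between the log2 fold changes -6.81 for a minus b, SE 0.22, adjusted p = 7.66e-08). The secretory carrier genes scamp5b and scamp5a had 228 TPM in eyes and 5.47 TPM in brains and 30.6 TPM in eyes and 91 TPM in brains. Neuritin, a protein of growing neurites, had its nrn1b copy at 11.3 TPM in eyes and 0.111 TPM in brains and its nrn1a copy at 51.3 TPM in eyes and 383 TPM in brains. In brains each of these eye copies was far below the other copy of its pair. The remaining pairs of the 8 with the largest differences were snx19a and snx19b, with 49 and 0.216 TPM and 5.45 and 14.1 TPM in eyes and brains, tmx3a and tmx3b, with 54.3 and 0.376 TPM and 31.5 and 67.1 TPM, and fam161a and fam161b, which in humans are separate genes, with 65.8 and 1.36 TPM and 1.07 and 9.47 TPM. The lower copies snx19b, tmx3b and elovl4a, with log2 fold changes of -1.29, -1.06 and -1.18 under TPM, were not called with the median-of-ratios scaling (-0.73, -0.47 and -0.60), so these 3 splits are lost there. The calls of tmx3b, elovl4a and scamp5a as lower were not found in IPP larvae. Without brain library 1, tmx3b was not called (-0.92), and without brain libraries 1 and 4 neither was scamp5a (-1.64, adjusted p = 0.0546, limma).

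Vesicle fusion genes gave further splits, named here after their values were seen. The Munc18 genes stxbp1b and stxbp1a, which bind syntaxin, had 61.8 TPM in eyes and 3.37 TPM in brains and 276 TPM in eyes and 921 TPM in brains (difference between the log2 fold changes -5.71 for a minus b, SE 0.28, adjusted p = 7.54e-07, limma). For snap25b and snap25a, whose levels are given above, the difference between the log2 fold changes was -4.01 for a minus b (SE 0.10, adjusted p = 3.57e-08, limma). Eyes held more snap25b than snap25a and brains the reverse, whereas stxbp1a was the more abundant copy in both tissues.

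**Figure D4:**
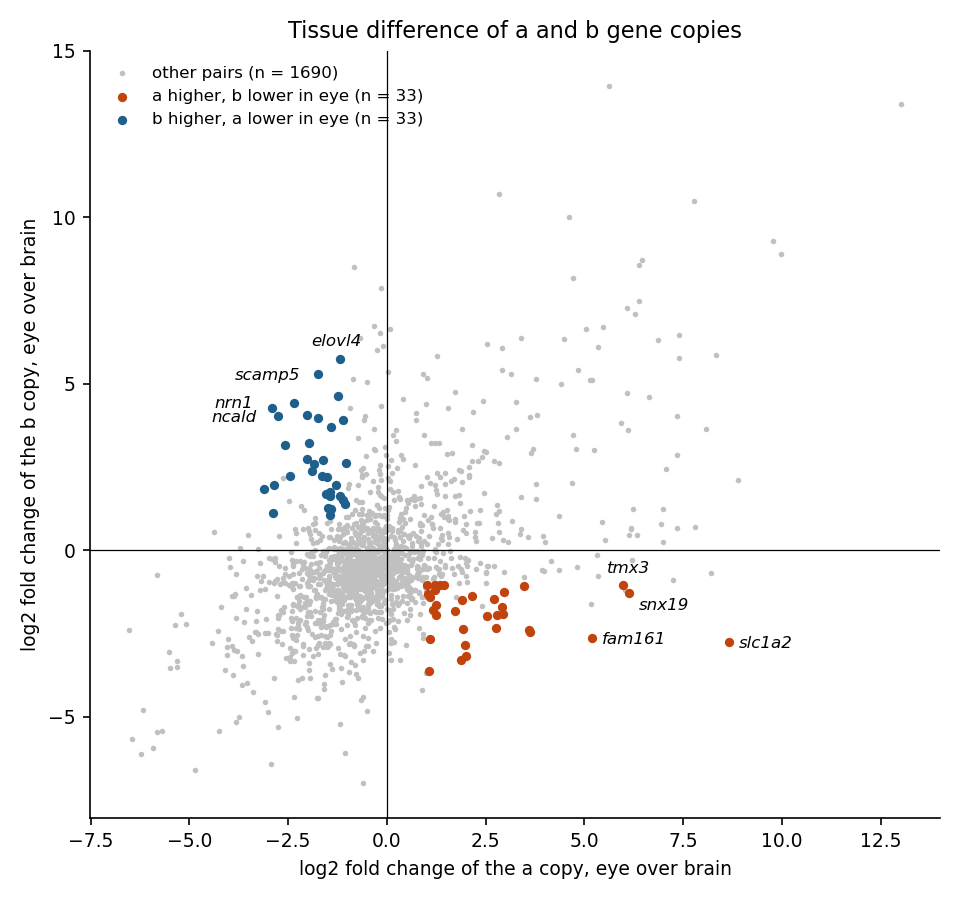
Log2 fold change, eye over brain, of the a copy (horizontal axis) against the b copy (vertical axis) for the 1756 pairs tested. Coloured points in the upper left and lower right quadrants are the 66 pairs with copies called in opposite directions, and the 8 pairs with the largest difference are labelled.

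Few ribosomal protein, cell cycle and respiratory chain genes were called. Of 77 ribosomal protein genes tested, 0 were called higher in eyes and 0 lower under TPM, with 1 higher with the median-of-ratios scaling, and their median log2 fold change was 0.06 under TPM and 0.65 with that scaling. Of 50 cell cycle genes tested, 0 were higher and 2 lower (0 with both scalings), with pcna, the replication clamp, at 396 TPM in eyes and 539 TPM in brains. Of 72 respiratory chain genes tested, 1 was higher and 6 lower, 3 with both scalings. The one higher was cox4i2, an alternative subunit of cytochrome oxidase, with 304 ± 20.5 TPM in eyes and 104 ± 2.41 TPM in brains, and ndufa4 and cox6b1 were lower with 6.1 TPM in eyes and 43.1 TPM in brains and 35.4 TPM in eyes and 226 TPM in brains. Of 40 glycolysis and creatine kinase genes tested, 5 were higher and 6 lower, 4 with both scalings, beside 11.3%, 26.2% and 13.7% of all genes tested. The mitochondrial creatine kinase ckmt2a had 153, 173, 161 and 147 TPM in the eye libraries, against 0, 0.322, 0.0916 and 0 TPM in the brain libraries (log2 fold change 8.07, SE 0.18, adjusted p = 1.64e-09, limma), and aldoca, the aldolase known as a marker of Purkinje cells, had 0.153 TPM in eyes and 35.5 TPM in brains. Transcripts of the mitochondrial genome such as mt-co1, with 16982 TPM in eyes and 23596 TPM in brains, were among the most abundant in both tissues and not called.

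Clock genes leaned towards eyes. Of 33 tested, 12 were higher and 0 lower in eyes, against the 11.3% of all genes that were higher. The repressor nr1d1 had 962, 1007, 889 and 1195 TPM in the eye libraries, against 295, 275, 352 and 347 TPM in the brain libraries (log2 fold change 1.67, SE 0.11, adjusted p = 1.11e-06, limma), and bhlhe40, another repressor, had 1253 TPM in eyes and 458 TPM in brains. The largest difference was in nfil3-6, a clock-controlled factor, with 365 TPM in eyes and 20.1 TPM in brains. The labels do not state the hour at which each tissue was dissected. Of 27 immediate early genes tested, 4 were higher and 9 lower, 6 with both scalings, beside 11.3%, 26.2% and 13.7% of all genes tested. The activity-regulated factor npas4a had 44.4, 116, 51.3 and 65.7 TPM in the eye libraries, against 453, 311, 294 and 371 TPM in the brain libraries, and the phosphatase dusp2, induced by growth signals, had 108 TPM in eyes and 10.6 TPM in brains. In lipid synthesis, 5 of 38 genes tested were higher and 10 lower, near the shares of all genes (11.3% and 26.2%). With both scalings 2 of the 38 were lower, under the 13.7% of all genes. The gene elovl4b had the largest difference, and scdb, a fatty acid desaturase gene, was lower with 44.6 TPM in eyes and 189 TPM in brains. Without brain library 1 the lipid genes lower in eyes numbered 6, and the 5 higher ones numbered 3 without eye library 3 or without brain library 3 or 4.

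Genes of neighbouring tissues varied among libraries of the same tissue, and their part in the other results was not tested. Skin and cornea genes were higher in eyes in 20 of 34 tested and lower in 1, and without eye library 4 or brain library 2 the higher ones numbered 13. Their summed level was 5645, 5653, 7756 and 9298 TPM in the eye libraries, against 242, 863, 1526 and 5842 TPM in the brain libraries, so brain library 4 reached the eye range. The keratin cyt1 had 1114, 1016, 1302 and 1766 TPM in the eye libraries, against 28.6, 109, 283 and 1278 TPM in the brain libraries, and its call was lost without eye library 3 or 4 or brain library 2 (adjusted p = 0.0551, 0.0584 and 0.0677, limma). The keratin with the largest difference, krt97, had 587 TPM in eyes and 41.5 TPM in brains. The corneal stroma proteoglycan kera had 70.1 TPM in eyes and 2.36 TPM in brains, and 12 of 45 collagen, cartilage and connective tissue genes tested were higher in eyes (20 with the median-of-ratios scaling) and 4 lower. Of all genes tested, 11.3% were higher in eyes (16.5% with the median-of-ratios scaling) and 26.2% lower. In sum the connective tissue list gave 1507, 1687, 2140 and 2452 TPM in the eye libraries, against 378, 461, 2087 and 3003 TPM in the brain libraries. Brain library 3 was within the eye range and brain library 4 above it.

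Liver and gut genes gave 675, 219, 286 and 231 TPM in the eye libraries, against 15118, 397, 269.9 and 1237 TPM in the brain libraries in sum. Brain library 1 stood far above the others, and its liver gene fabp10a was at 2096 TPM, against 5.26, 0.897 and 5.06 TPM in the other brain libraries. Of 32 such genes tested, 0 were higher in eyes and 11 lower, 2 with both scalings. The number lower was 4 to 6 when eye library 2, 3 or 4 or brain library 1 or 4 was left out. For this list and those that follow, the shares over all genes tested were 11.3% higher, 26.2% lower and 13.7% lower with both scalings. Skeletal muscle genes gave 355, 278, 192 and 567 TPM in the eye libraries, against 207, 272, 475 and 2506 TPM in the brain libraries in sum, highest in brain library 4, with 1 of 27 tested higher in eyes and 2 lower. Of 14 blood cell genes tested, 1 was higher in eyes and 1 lower, and the globin hbae3 had 475 TPM in eyes and 454 TPM in brains. Of 12 microglia and macrophage genes tested, 2 were higher in eyes and 0 lower, among them the lipid carrier apoeb with 368 TPM in eyes and 115 TPM in brains. Endothelial genes were higher in 6 of 32 tested and lower in 5 under TPM, with 15 higher and 1 lower with the median-of-ratios scaling. Inner ear and hair cell genes were higher in 3 of 13 and lower in 1, with pou4f3, a factor that hair cells share with retinal ganglion cells, at 51.1 TPM in eyes and 4.34 TPM in brains. The skin marker epcam, the muscle marker mylpfa and the blood marker alas2 were listed at 0 in every library.

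**Figure D5:**
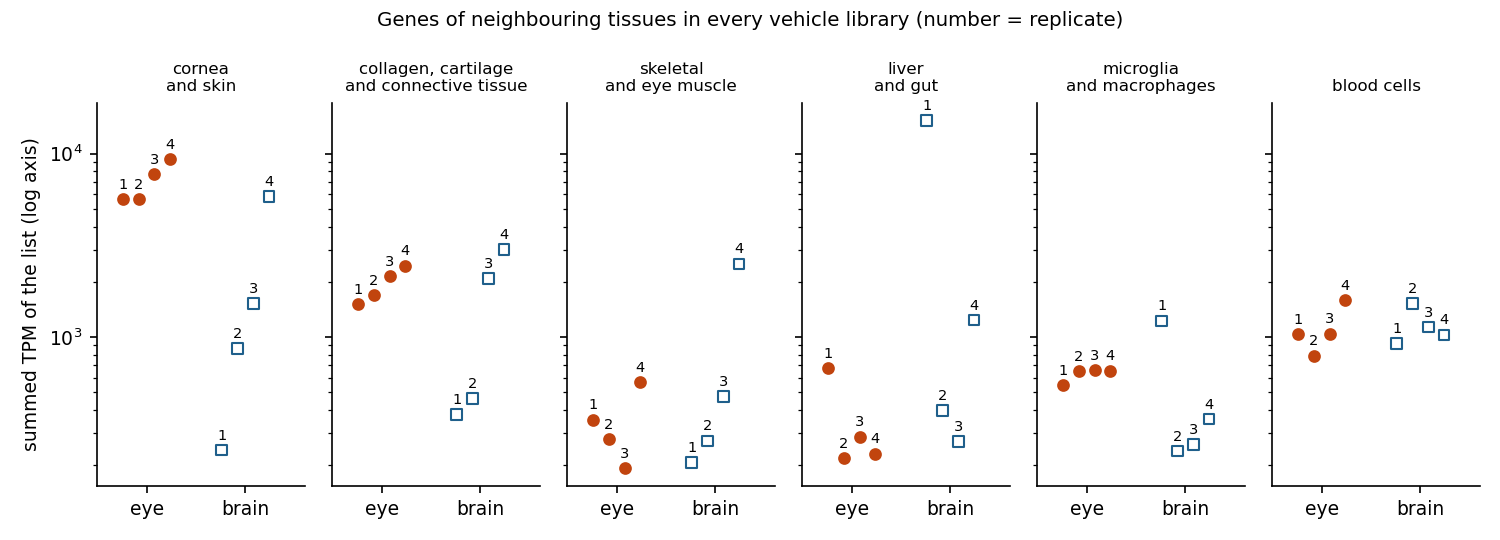
Summed level of 6 lists for neighbouring tissues in every library, in TPM on a log axis, eye libraries (filled circles) left of brain libraries (open squares), numbered 1 to 4. Liver and gut genes are high in brain library 1, and skin, cartilage and muscle genes are high in brain library 4.

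Without brain libraries 1 and 4, a choice made after seeing these levels, 1999 genes were called higher in eyes and 4438 lower, and 70 pairs were split. Crystallins in those 2 brain libraries were as low as in the others, at 13.5 and 16 TPM in sum, against 16.6 and 12.5 TPM in brain libraries 2 and 3.

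Genes lower in eyes had a longer median span in the genome. The median span from the first to the last base of a gene was 15.6 kb for protein-coding genes higher in eyes, 21.2 kb for those lower, 23 kb for those lower with both scalings, and 16.8 kb for those not called. Of the 1301 protein-coding genes over 100 kb, 75 (5.8%) were higher in eyes and 569 (43.7%) lower, 332 (25.5%) with both scalings. Of the 2228 under 5 kb, 317 (14.2%) were higher and 639 (28.7%) lower, 373 (16.7%) with both scalings. Over all genes tested these shares were 11.3%, 26.2% and 13.7%. The exonic length that enters FPKM differed less, with medians of 2.21 kb for genes higher in eyes and 2.51 kb for those lower. By chromosome, number 9 held 9.56% of eye TPM and 2.43% of brain TPM, and all crygm2d genes tested lie on it. These lengths and positions are those of the deposited tables, and the build they refer to is not named in the labels or headers.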

How the data were processed

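RNA was sequenced from 8 vehicle libraries, 4 of eyes and 4 of brains, and from 8 libraries of IPP larvae. The authors deposited 1 table of FPKM per tissue, that is, fragments per kilobase of gene length and mapped depth, for 31901 genes, and values and gene lengths are read per the file headers. HISAT2 2.0.5 and featureCounts 1.5.0-p3 are named per the submitters' processing notes, and no build is named in the labels or headers. Both a strand-specific and an unstranded library preparation appear in the labels, so reads of overlapping genes on opposite strands may be mixed, which bears on 28 of the 189 genes named.

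TPM was computed from FPKM per library. Genes that reach a mean of 1 FPKM in either vehicle group were tested on log2(TPM + 0.5) with limma 3.58.1 in R 4.3.3 (eBayes with trend, two-sided, Benjamini-Hochberg adjustment over all genes tested, 2 groups with no block). The test script was checked on simulated data. Reads rebuilt from FPKM were whole numbers within 0.01 read and served for totals, floors of 3 reads and limma-voom as an alternative. Of 2004 entries in 47 gene lists, 1875 matched a gene by symbol, and 1428 different genes were tested. Members and lists were chosen with earlier results of these data known.

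Genes were named by rule: the 12 called genes per direction with the largest fold change among those with at least 10 TPM and no overlap, up to 6 members of each list with the largest fold change or level plus 2 of the less frequent direction, markers, the 8 split pairs with the largest difference and at least 5 TPM per copy, 5 transcription factors per direction, 5 genes per direction with at least 100 TPM in both tissues, and the 8 most abundant genes of each tissue. Not all of them are printed, and exceptions are marked. Likely copies of a gene were paired by symbol alone (a and b). Alternatives covered the pseudocount, filter, scaling, test, block and left-out libraries. Gene, promoter and protein sequences were not used here.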

Additional observations from a re-analysis of the deposited data

Results flagged for a closer look

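Of 472 sets of 4 libraries looked at, the summed levels of the lists and the levels of the genes named, 47 had 1 library set apart from the other 3 by most of the range of the set. Chance gives about 1 such set in 20 where values are normal and sets independent. Here lists share genes and libraries, and some genes, such as gh1 in eyes, had reads in 1 library alone. The count of sets can therefore not be weighed against that rate. No cause was tested for any of them.

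Among the lists this was found in 13 of 94 sets. Eye library 1 was set apart as the highest of its tissue in summed level, with 675 TPM for liver and gut genes. Eye library 1 was set apart as the lowest of its tissue in summed level, with 545 TPM for microglia and macrophage genes. Eye library 2 was set apart as the highest of its tissue in summed level, with 2515 TPM for retinal ganglion cell genes. Eye library 3 was set apart as the lowest of its tissue in summed level, with 1831 TPM for bipolar cell genes and 6503 TPM for vesicle release genes. Eye library 4 was set apart as the highest of its tissue in summed level, with 917 TPM for lipid synthesis genes. Brain library 1 was set apart as the highest of its tissue in summed level, with 586 TPM for ependymal and ciliary genes, 1225 TPM for microglia and macrophage genes, 15118 TPM for liver and gut genes and 1155 TPM for lipid synthesis genes. Brain library 4 was set apart as the highest of its tissue in summed level, with 2506 TPM for muscle genes and 596 TPM for inner ear and hair cell genes. Brain library 4 was set apart as the lowest of its tissue in summed level, with 2291 TPM for neuropeptide genes.

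The other sets are single genes. Eye library 1 held the highest level of its tissue for cdh13 (6.82 TPM), fabp10a (81.7 TPM), pomca (0.157 TPM), prl (0.275 TPM), rln3a (1.07 TPM) and scn1bb (59.5 TPM). Eye library 1 held the lowest level of its tissue for crygn2 (16160.0 TPM). Eye library 2 held the highest level of its tissue for epd (3.95 TPM), isl2b (126 TPM) and sox10 (12.9 TPM). Eye library 3 held the highest level of its tissue for gh1 (0.296 TPM). Eye library 3 held the lowest level of its tissue for ache (25.3 TPM) and foxg1b (939 TPM). Eye library 4 held the highest level of its tissue for slc17a6a (0.98 TPM) and sox19a (1.73 TPM). Eye library 4 held the lowest level of its tissue for cryba1l1 (7824 TPM). Brain library 1 held the highest level of its tissue for bhmt (383 TPM), fabp10a (2096 TPM), kcnv2b (0.104 TPM) and tmx3b (88.6 TPM). Brain library 2 held the highest level of its tissue for chrna5 (67.4 TPM), cryba1b (0.1004 TPM) and sox19a (114 TPM). Brain library 3 held the highest level of its tissue for cryba2b (0.104 TPM), gnat1 (7.41 TPM), opn9 (0.717 TPM), pde6c (2.53 TPM), prph2a (2.19 TPM), rbp3 (3.63 TPM), slc1a8a (1.32 TPM), sv2ba (0.533 TPM) and tenm1 (77 TPM). Brain library 4 held the lowest level of its tissue for pax2a (51 TPM) and scamp5b (3.42 TPM). Several of these are genes with a handful of reads in the tissue named, such as cryba1b, cryba2b and kcnv2b in brains and gh1, prl, pomca and rln3a in eyes. Those genes were far apart between the tissues in every library. Photoreceptor genes that were high in brain library 3 were still far below the level of every eye library.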

How the results depend on the processing

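Under TPM, 1868 genes were called higher in eyes and 4340 lower, 66 pairs were split, and 4949 calls were found the same way in IPP larvae. Leaving out 1 vehicle library at a time gave 1711 to 2096 genes higher, 4083 to 4719 lower, 59 to 77 split pairs and 4833 to 4992 calls found in IPP larvae. No called gene of the main comparison was called the opposite way under any alternative run. The lower calls numbered 2275 with median-of-ratios scaling, 2802 with TPM computed without crystallin and phototransduction genes, and 2755 with quantile normalization. With limma-voom on reads rebuilt from FPKM, 2830 genes were higher and 2330 lower. A filter at 5 FPKM left fewer genes to test, with 1245 higher and 40 split pairs. Tested against a 2-fold change, an alternative added after seeing the data, 1144 genes were higher, 2258 lower and 27 pairs split. With the replicate number of the labels as a block, 1945 genes were higher, 4431 lower and 71 pairs split. The same-numbered eye and brain libraries deviated with correlations of 0.17, 0.11, -0.09 and 0.38 for numbers 1 to 4, the last the highest of all. Differently numbered libraries gave -0.30 to 0.19. These values cannot decide whether the numbers mark pairs. The numbers were not taken as pairs because the labels do not say whether eyes and brains came from the same larvae. Of 189 genes named, 7 changed sign under some alternative, and none of them was called in the main comparison. With median-of-ratios scaling and with limma-voom, the log2 fold changes were 0.12 and 0.12 for fabp7a, 0.0932 and 0.0929 for gad1b, 0.12 and 0.12 for mt-co1 and 0.15 and 0.16 for pcna. With quantile normalization it was -0.16 for ckbb. For hbae3 it was -0.011 without mitochondrial genes, -0.1475 without eye library 4, -0.0119 without brain library 1, -0.0558 without brain library 4 and -0.19 without brain libraries 1 and 4. For fabp10a it ran from -3.67 without eye library 1 to 0.11 without brain library 1, and was 0.43 without brain libraries 1 and 4. Of the genes named, 13 lost a call under some alternative and 4 gained one. Among those 4 was fabp10a, called lower in eyes with the replicate number as a block (-2.19, adjusted p = 0.0287, limma). The cause of these changes was not tested. Depth limits the genes near 0: 3 reads in a library set the floor for any fold against no read.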

Other observations

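Many calls fell outside the lists described. Of the genes called higher in eyes, 1508 were in no list, and of those called lower, 3864. Except for gsx1, pou3f2a and epd, which the naming rule takes in, the genes below were named after their values were seen. In some pairs of copies, 1 copy was nearly restricted to eyes while the other was not called. The forebrain factor copy foxg1b had 1272, 1239.5, 939 and 1234 TPM in the eye libraries, against 2.14, 2.02, 4.17 and 2.79 TPM in the brain libraries, while foxg1a differed between the tissues by less than 2-fold (difference between the log2 fold changes -9.35 for a minus b, SE 0.17, adjusted p = 1.29e-08, limma). The eye libraries were all more than 200-fold above the brain libraries for foxg1b. The mitochondrial phosphate carrier slc25a3a had 368 TPM in eyes and 0.822 TPM in brains, and slc25a3b had 353 TPM in eyes and 570.0 TPM in brains. The regulator of G protein signalling rgs9a, which speeds the recovery of photoreceptors, had 98.2 TPM in eyes and 0.159 TPM in brains, and rgs9b had 7.69 TPM in eyes and 14.6 TPM in brains. The calcium pump atp2b1b had 187 TPM in eyes and 1.85 TPM in brains, and atp2b1a had 56.3 TPM in eyes and 90.4 TPM in brains.

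Among genes in no list, the calpain capn3a had 1038 TPM in eyes and 0.382 TPM in brains, and the opsin opn9 had 97.3 TPM in eyes and 0.202 TPM in brains. Myoglobin mb varied among libraries, with 240, 145, 440 and 213 TPM in the eye libraries, against 0.803, 0.153, 4.95 and 23.7 TPM in the brain libraries. On the brain side, the RNA-binding protein gene nova1, a splicing regulator of neurons, had 3.45 TPM in eyes and 255 TPM in brains. The homeobox or related factors gsx1, pou3f2a, shox2 and sox14 had 0.699, 0.903, 0.645 and 2.2 TPM in eyes and 93.7, 115, 65.8 and 181 TPM in brains. Ependymin epd, a secreted protein of the fish brain, had 1.64 TPM in eyes and 174 TPM in brains.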
